A study of Mus musculus with 4 samples.

Results

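The Runx family and its cofactors were followed through single-cell RNA-seq of mouse LSK cells, the lineage-negative, Sca-1-positive, cKit-positive fraction of bone marrow that holds the hematopoietic stem cells and the multipotent progenitors. They are 6 of the 32285 genes counted, taken by symbol: the DNA-binding subunits Runx1, Runx2 and Runx3, their shared partner Cbfb, and the corepressors Runx1t1 and Cbfa2t3, also known as ETO and ETO2. Each of the 6 had 50 or more UMIs (unique molecular identifiers, one for each captured transcript) in each of the 4 pools compared, so none was lost to a filter on low values over all cells.

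The 3 Runx proteins bind DNA through the Runt domain, with core-binding factor beta, the product of Cbfb, as a partner that does not touch DNA itself but tightens the binding. Runx1 is needed for the first hematopoietic stem cells of the embryo to form and later for megakaryocytes and lymphocytes, Runx2 is best known as the regulator of osteoblasts, and Runx3 as a regulator of cytotoxic T cells and NK cells. The ETO proteins do not bind DNA in a sequence-specific way but bring histone deacetylase complexes to it, and Sin3B, the protein removed here, is a scaffold of such complexes.

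Wild-type LSK cells carried the floxed Sin3B alleles without Cre (Sin3B F/F), and Sin3B-/- cells carried the same alleles with Vav1-iCre, a transgene that is active in the whole hematopoietic system from the embryo on, so that loss is not confined to adult stem cells. Both were sorted from C57BL/6 mice, either untreated (homeostasis) or 9 days after 100 mg/kg of 5-fluorouracil (5-FU), a drug that kills cycling progenitors and brings stem cells into division. For each genotype 2 mice were pooled per condition and marked with a hashtag, an antibody carrying a barcode, and the deposited labels name both genotypes for each library; the hashtag of each genotype is the one the methods of the study name. There were thus 2 libraries and 4 pools. The homeostasis library kept 10184 wild-type and 4108 Sin3B-/- cells and the 5-FU library 4855 and 3307.

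The pools held between 31901720 and 82876977 UMIs, with medians of 6606.5 to 10935 per cell. Sin3b itself checked the assignment: it stood at 81.7 counts scaled to a common pool total (CPM) in wild-type and 23.3 in Sin3B-/- cells at homeostasis, and at 113 and 15.1 CPM after 5-FU. The remaining counts were not at 0, and Sin3b stood at 66.7 CPM in the free RNA of the homeostasis library, read from barcodes of at most 100 UMIs; whether the counted ends lie inside the deleted part of the gene could not be read from the tables. Condition and library coincide, so effects of 5-FU and of the library cannot be told apart, and the genotypes are compared within each library. The libraries share 76 cell barcodes.

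The promoters of the Runx genes hold the sequence that Runx proteins read, and they are shown because the 3 paralogs carry it in the same arrangement. Runx proteins bind TGTGGT, written ACCACA on the other strand, and more weakly TGCGGT. In the RefSeq windows of 250 bases before to 50 bases after each start site (GRCm38.p6), the distal promoters of all 3 Runx genes held the same 18 bases with a pair of ACCACA motifs separated by 2 bases. The run was picked as the longest stretch that these 3 promoters share, so its presence in all 3 is given. It occurred in 4 of 32851 promoters, the fourth being that of Gm16225. The lines below give 30 bases around it, 5′ to 3′ on the strand of the gene, with the motifs in capitals.
Runx1, chr16:92826025-92826054, minus strand, first base 20 bases after the start: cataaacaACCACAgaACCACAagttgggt
Runx2, chr17:44814583-44814612, minus strand, first base 15 bases after the start: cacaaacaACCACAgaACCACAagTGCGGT
Runx3, chr4:135120503-135120532, plus strand, first base 142 bases before the start: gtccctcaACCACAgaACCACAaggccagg
In Runx2 a TGCGGT, which is the other orientation, followed the pair after the bases ag. Over all promoters and both strands, TGTGGT was found in 16.8%, TGCGGT in 6.45% and either in 22.4%, so a single match is common. The rarity of the run is not set against these shares, since a longer sequence matches less often. The proximal promoters of Runx1 and Runx3 and the promoter of Cbfb held neither motif in these windows, and the distal promoter of Cbfa2t3 held 1 TGCGGT. The counts come from the 3′ ends of transcripts and do not show which promoter was used.

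The 6 genes differ in how much intron they carry. In GENCODE M21 (GRCm38) Runx1 spans chr16:92601466-92826149 with 213 kb of intron, Runx2 chr17:44495987-44814797 with 310 kb, and Runx1t1 chr4:13743436-13893649 with 142 kb, all in the tenth of genes with the most intron. Runx3 at chr4:135120652-135177990 has 52.3 kb, Cbfb at chr8:105170674-105217989 has 43.8 kb and Cbfa2t3 at chr8:122625141-122699109 has 65.6 kb. Over all genes the log2 ratio of counts at homeostasis to those after 5-FU had a median of 1.48 in the tenth with the most intron, 0.73 in the tenth that holds Cbfa2t3 and 0.43 in the tenth that holds Runx3 and Cbfb. The members followed this only in part. Runx1, Runx2 and Runx1t1 had ratios of 2.14, 2.13 and 1.38, while Cbfb had 1.17, Runx3 0.19 and Cbfa2t3 -0.24. The sources used here do not say whether reads from introns were counted in either library; if they were, the CPM of Runx1, Runx2 and Runx1t1 at homeostasis and the shares of Runx UMIs include them. Each gene is therefore read within a library. Antisense genes overlap Runx1, Runx2, Runx3 and Cbfa2t3, and Supt3 lies opposite Runx2; the sources used here do not give the counting strand.

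To ask which paralog each cell type carries, cells were clustered in each library without the 6 members, and clusters were named from fixed marker genes. At homeostasis this gave an LT-HSC-like cluster (long-term stem cells, with 10 of 10 markers such as Procr, Hlf and Mecom raised), and lymphoid-primed-like, neutrophil-primed-like, megakaryocyte-erythroid-like and B-lineage-like cells. After 5-FU an LT-HSC-like cluster (8 of 10 markers), megakaryocyte-erythroid-like and neutrophil-primed-like cells were found, with only 12 B-lineage-like cells. The neutrophil-primed-like clusters at homeostasis were led by histone, mitotic and S-phase genes. One of the clusters that make up the megakaryocyte-erythroid-like cells after 5-FU, cluster 7, was led by histone genes, and beside 8 of 10 markers of its own type it raised 4 of 6 neutrophil markers, Mpo, Elane, Ctsg and Ms4a3; of the 827 wild-type cells of that type 316 lay in it, and of the 760 Sin3B-/- cells 308. Another cluster after 5-FU, led by Cyp26b1 and Cldn5, raised 8 of 10 LT-HSC markers together with Cldn5, an endothelial marker, and stayed unnamed because that marker is among its leading genes; it raised 2 of 6 endothelial markers, Cldn5 and Kdr (11 UMIs in wild type and 35 in Sin3B-/-). Of the others, Pecam1 had 77 and 254 UMIs there and Emcn 64 and 160, while Cdh5 had 0 in both genotypes and Plvap 0 and 2. It is called the Cldn5 cluster here. A cluster against the other cells is no test, so levels by cluster are a description with Poisson intervals (95%) that cover counting error only.

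All 3 paralogs were counted in the stem cell compartment, and the mixture of their UMIs differed between cell types. Of all Runx UMIs at homeostasis, 61.0% came from Runx1, 31.2% from Runx2 and 7.84% from Runx3. In LT-HSC-like cells the shares were 65.2%, 31.8% and 2.94% (Clopper-Pearson 95% interval 2.70 to 3.20), and in megakaryocyte-erythroid-like cells 73.2%, 16.1% and 10.7%. LT-HSC-like cells thus had the smallest share of Runx3 and megakaryocyte-erythroid-like cells the smallest share of Runx2 among the 5 named types. Lymphoid-primed-like cells held the largest share of Runx2, 35.4%.

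After 5-FU the same classes stood out on the same sides. LT-HSC-like cells had 12.9% of their Runx UMIs from Runx3, against 24.7% in all cells, and the Cldn5 cluster had 5.10%. Megakaryocyte-erythroid-like cells had 13.7% from Runx2, against 25.6% in all cells. Neutrophil-primed-like cells drew the largest share from Runx3, 36.8%, next to 42.2% from Runx1 and 21.0% from Runx2. Shares between the genes are shares of UMIs, not divided by length, and the part of intron length in them was not tested.

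**Figure D1:**
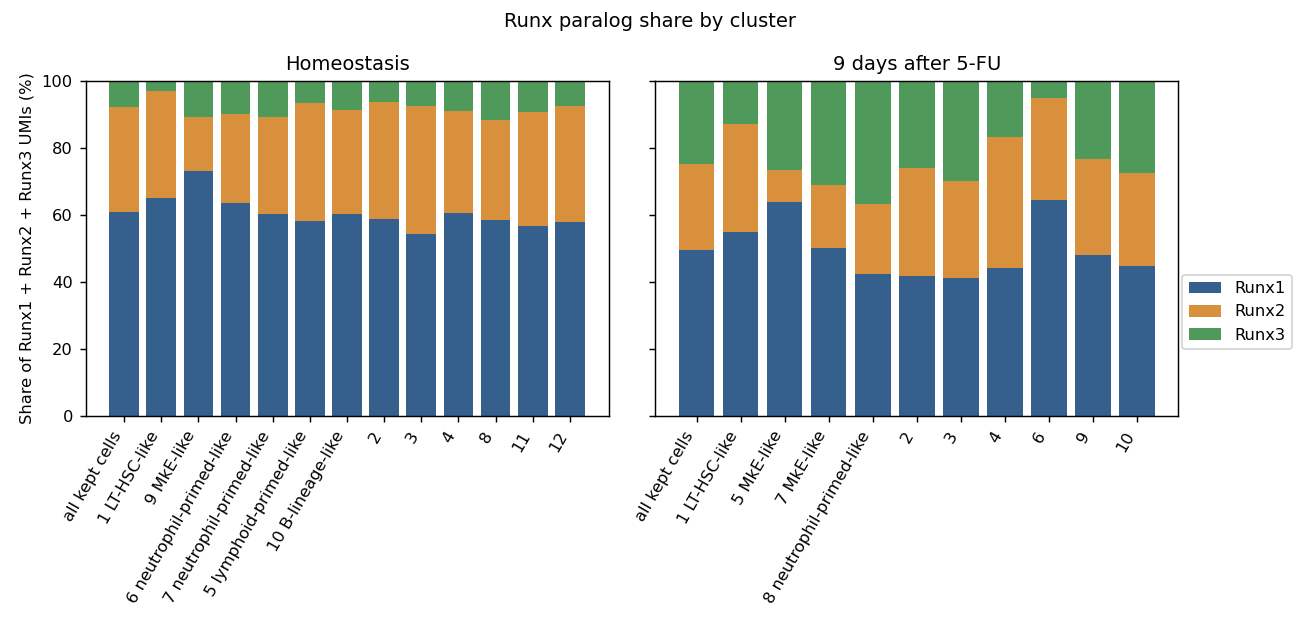
Stacked bars give the percent of all Runx UMIs that came from Runx1, Runx2 and Runx3 in each cluster of 50 or more cells (by its number, with its name where it has one) and in all kept cells, with both genotypes together, at homeostasis and after 5-FU (MkE-like stands for megakaryocyte-erythroid-like). At homeostasis the Runx3 part is smallest in the LT-HSC-like cluster, 2.94%, and the Runx2 part in the MkE-like cluster, 16.1%; after 5-FU the Runx3 part is smallest in cluster 6, the Cldn5 cluster, 5.10%, and the Runx2 part in cluster 5, 9.63%, the other MkE-like cluster having 18.9%.

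Among the paralogs, with the genotypes pooled, Runx3 had the widest fold range of levels between the named types of 50 or more cells. At homeostasis it stood at 147 CPM (136.7 to 158) in megakaryocyte-erythroid-like, 123 in neutrophil-primed-like, 106 in lymphoid-primed-like, 105 in B-lineage-like and 35.4 CPM (32.4 to 38.5) in LT-HSC-like cells. The lymphoid-primed-like and B-lineage-like levels overlapped in their intervals, and the other neighbours did not. After 5-FU the order was 114 CPM in neutrophil-primed-like, 103 in megakaryocyte-erythroid-like, 43.5 (40.0 to 47.2) in LT-HSC-like cells and 14.3 (11.5 to 17.5) in the Cldn5 cluster. These levels pool the genotypes, whose mixture differs between types: in wild type alone Runx3 stood at 50.3 CPM in LT-HSC-like cells at homeostasis, and after 5-FU at 57.9 in LT-HSC-like cells and 30.6 in the Cldn5 cluster. LT-HSC-like cells had the lowest Runx3 of the named types of 50 or more cells under every one of the 13 ways of selecting, clustering and naming cells in each library, but the level itself ran from 35.4 to 62.0 CPM at homeostasis and from 14.6 to 60.5 CPM after 5-FU. The 13 include the main way. Asking for markers raised 2-fold gave the same levels as the main way in both libraries. Counting the Cldn5 cluster as LT-HSC-like did so at homeostasis, so these are no separate checks. Free RNA at homeostasis held 65.7 CPM of Runx3, more than the LT-HSC-like cells, and how many of their Runx3 UMIs came from it was not tested. The free RNA also held 505 CPM of Runx1, 243 of Runx2, 105 of Cbfb, 4.62 of Runx1t1 and 172 of Cbfa2t3. Free RNA was not measured in the 5-FU library.

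Runx2 and Runx1 were ordered otherwise. Runx2 was highest in lymphoid-primed-like cells at homeostasis, 577 CPM (562 to 592), and lowest in megakaryocyte-erythroid-like cells, 220 CPM (207 to 233), below the 243 CPM of free RNA, with the LT-HSC-like (383) and B-lineage-like (374) levels overlapping between them. After 5-FU it was 109 CPM in LT-HSC-like, 65.2 in neutrophil-primed-like and 49.3 in megakaryocyte-erythroid-like cells. The highest type at homeostasis was the same in 12 of the 13 ways of selecting, clustering and naming cells. After 5-FU the highest type was the same in only 5. In the rest it was lymphoid-primed-like (151 to 173 CPM), B-lineage-like (156 CPM) or, by the study's signatures, the lymphoid-biased MPP4 (138 CPM). The main way named no lymphoid-primed-like type after 5-FU. Runx1, in contrast, was highest in megakaryocyte-erythroid-like cells in both libraries, at 1003 and 209 CPM, as it was in 9 and 10 of the 13 ways. At homeostasis it was lowest in B-lineage-like cells, 724 CPM, whose interval overlapped that of neutrophil-primed-like cells at 746 CPM, and after 5-FU in neutrophil-primed-like cells, 131 CPM, apart from the 12 B-lineage-like cells.

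Cbfb, the common partner, was lowest in stem-like cells. At homeostasis it ran from 111 CPM in LT-HSC-like to 151 CPM in neutrophil-primed-like cells, and after 5-FU from 44.5 to 72.0 CPM in the same types. Cbfa2t3, which sits with Tal1 and Gata factors in erythroid and stem cells, ran the other way, from 189 CPM in neutrophil-primed-like to 320 CPM in LT-HSC-like cells at homeostasis and from 175 to 337 CPM after 5-FU. Among the named types of 50 or more cells Cbfb was thus lowest, and Cbfa2t3 highest, where Runx3 was lowest. Over the 13 ways LT-HSC-like cells were lowest in Cbfb in 13 at homeostasis and 12 after 5-FU, and highest in Cbfa2t3 in 10 and 9, with dendritic-like, lymphoid-primed-like or other cells highest in the rest.

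Runx1t1 was the rarest member and the one most concentrated in stem-like cells. At homeostasis 381 of its 561 UMIs lay in LT-HSC-like cells, at 25.4 CPM (22.9 to 28.1), against 4.53 CPM in megakaryocyte-erythroid-like, 4.14 in B-lineage-like, 1.08 in neutrophil-primed-like and 0.497 in lymphoid-primed-like cells, all at or below the 4.62 CPM of free RNA. After 5-FU 110 of its 180 UMIs lay in the Cldn5 cluster, at 16.9 CPM (13.9 to 20.3), while LT-HSC-like cells held 1.81 CPM (1.16 to 2.69). Both of these clusters raised 8 of 10 stem cell markers. Counting the Cldn5 cluster as LT-HSC-like gave 6.78 CPM, the study's signatures gave 6.69, and LT-HSC-like cells were the highest named type after 5-FU in all 13 ways. The homeostasis LT-HSC-like cluster raised Cldn5 too and shares Dnm3 and Runx1t1 with the Cldn5 cluster among its leading genes. Runx1t1 was not used for the clustering.

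**Figure D2:**
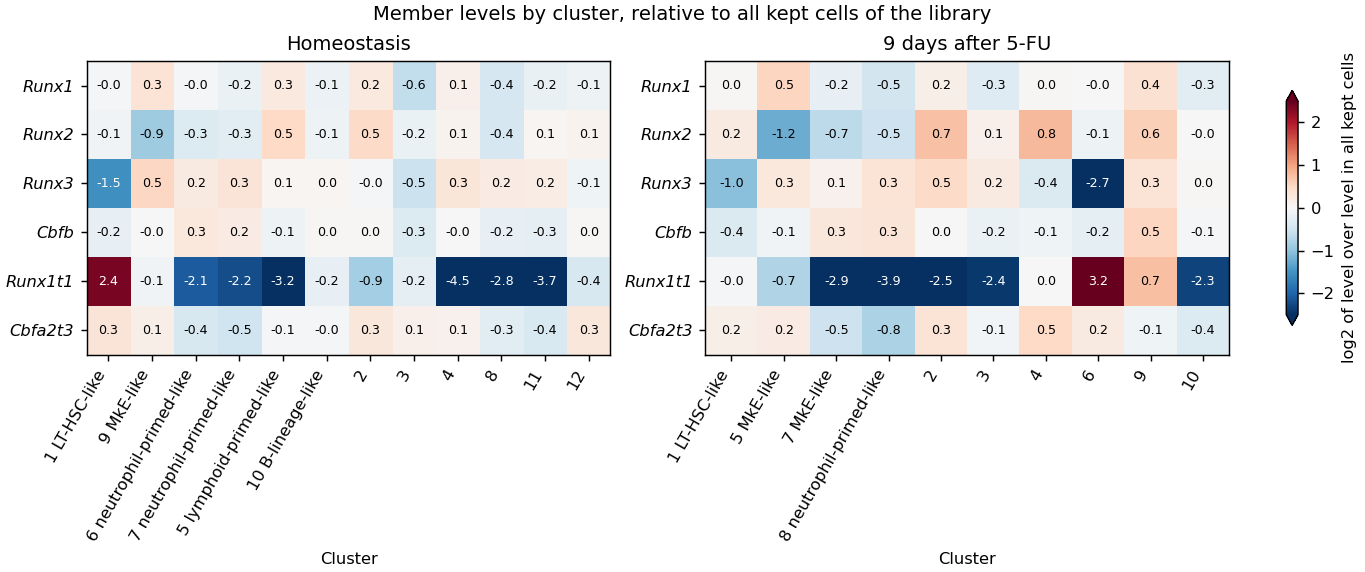
Colours give the log2 level of each member (rows) in each cluster of 50 or more cells (columns) relative to all kept cells of the same library, with homeostasis and 5-FU in separate panels. Runx3 is low and Runx1t1 high in the LT-HSC-like cluster at homeostasis, and after 5-FU Runx3 is lowest and Runx1t1 highest in cluster 6, the Cldn5 cluster (14.3 and 16.9 CPM).

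The next comparison asks what loss of Sin3B does to the members. Runx3 was lower in Sin3B-/- cells in both libraries, and it was the only member called by the test over all cells. That test averages the libraries, so it is no check of members that moved in opposite directions in them, as Runx1 and Cbfa2t3 did. Runx3 stood at 113 CPM in wild-type and 74.7 in Sin3B-/- cells at homeostasis, and at 109 and 67.5 CPM after 5-FU. In each library the Sin3B-/- pool thus lay below the wild-type pool. The log2 ratio of Sin3B-/- over wild type was -0.60 (counting interval -0.66 to -0.53) at homeostasis and -0.69 (-0.75 to -0.62) after 5-FU, where the median of all genes was near 0 (0.01 and -0.02).

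The 4 pools allow 1 test, edgeR's quasi-likelihood test on summed counts with library as a term, which leaves 1 residual degree of freedom. Pools of a genotype in 2 libraries are different mice under different conditions. The residual is thus how far the genotype effect differs between the libraries, not a spread between mice. The test also borrows spread from the other genes, with a weight in degrees of freedom of 6.41 over all cells, 15.2 in LT-HSC-like and 20.7 in neutrophil-primed-like cells. In megakaryocyte-erythroid-like cells that weight was infinite, so a gene's own spread had no part in its p-value. Over all kept cells 1 of the 6 members passed an adjusted p of 0.05, Runx3 with a log2 change of -0.63 and an adjusted p of 0.0138; of all 17202 genes tested, 0.849% were called lower and 0.965% higher. The other members had log2 changes of -0.26 for Runx2 (edgeR adjusted p = 0.314), -0.04 for Runx1 (0.921), -0.11 for Cbfb (0.654), 0.46 for Runx1t1 (0.442) and 0.00 for Cbfa2t3 (0.9995). Under another hashtag rule, by which 1 tag must hold 80% of hashtag UMIs, Runx3 missed the threshold (edgeR adjusted p = 0.0550, log2 change -0.60). This rule was stricter at homeostasis, where it left 868 Sin3B-/- cells, but it kept more cells after 5-FU, 4051 Sin3B-/- cells against 3307.

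Of the 3 cell types tested, LT-HSC-like cells had the largest decrease of Runx3. There it stood at 50.3 CPM in wild-type and 19.0 in Sin3B-/- cells at homeostasis (396 and 135 UMIs), and at 57.9 and 22.2 CPM after 5-FU (457 and 119 UMIs). In each library the Sin3B-/- pool lay below the wild-type pool, and the log2 ratios were -1.40 (-1.70 to -1.12) and -1.38 (-1.69 to -1.09). Other ways of selecting, clustering and naming the cells left both negative but moved them, to -0.69 at homeostasis under the stricter hashtag rule and to -2.05 after 5-FU at a finer clustering. With a log2 change of -1.37 and an edgeR adjusted p of 1.55e-05, Runx3 was again the 1 member of 6 called, among 0.731% of 13682 genes called lower in these cells. Its share of Runx UMIs in LT-HSC-like cells went from 4.21% in wild type to 1.56% in Sin3B-/- at homeostasis and from 15.6% to 7.70% after 5-FU.

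In megakaryocyte-erythroid-like cells Runx3 stood at 162 CPM in wild type and 120 in Sin3B-/- at homeostasis and at 125 and 84.0 CPM after 5-FU. It was called lower there too, with a log2 change of -0.50 and an edgeR adjusted p of 2.93e-05, again as 1 member of 6 against 2.05% of 12854 genes. In neutrophil-primed-like cells it stood at 128 and 107 CPM at homeostasis and at 125 and 103 after 5-FU, a log2 change of -0.26 that edgeR did not call (adjusted p = 0.206). There 0 of the 6 members passed (1.38% of 12697 genes were called lower and 1.23% higher), and 2 members, Runx3 and Runx2, had an unadjusted p under 0.05 (0.0148 and 0.0183), as did 13.3% of all genes tested.

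DESeq2, the other count model tried, gave the same Runx3 call over all cells (adjusted p = 5.19e-06, 1.46% of genes called) and in LT-HSC-like cells (0.0148, 0.0827% called). It did not call Runx3 in megakaryocyte-erythroid-like cells (0.305, 0.635% called), and in neutrophil-primed-like cells it called 0 of the 5 members to which it gave an adjusted p (0.248%). Its log2 changes, -0.63, -1.36 and -0.49 in the first 3, were close to those of edgeR.

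**Figure D3:**
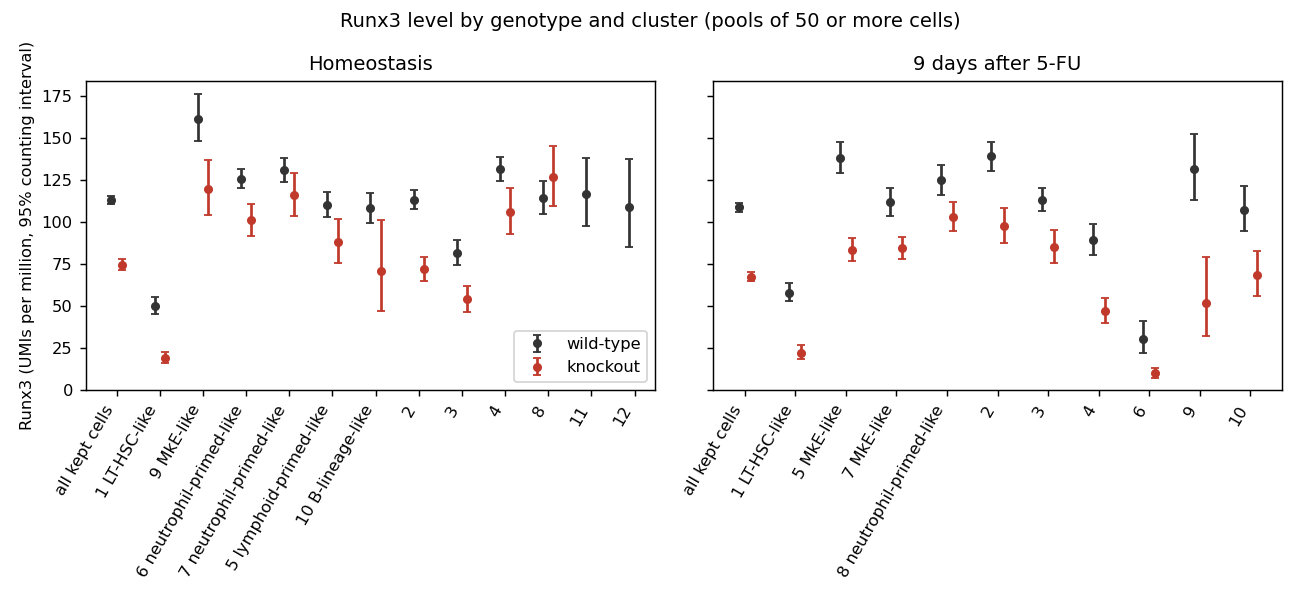
Points give the Runx3 level (CPM) in wild-type and Sin3B-/- cells of all kept cells and of each cluster, for pools of 50 or more cells, with its Poisson interval (95%, counting error only), at homeostasis and after 5-FU. The Sin3B-/- point lies below the wild-type point wherever both are drawn, except in cluster 8 at homeostasis, and in LT-HSC-like cells the points stand at 50.3 against 19.0 and 57.9 against 22.2 CPM.

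Whether the decrease differed between cell types was tested with an interaction term, an analysis chosen after the data were seen. The 12 class pools come from the same 4 pools of mice. A term for each pool takes up what its classes share, and 2 residual degrees of freedom are left. That residual is how far the differences between classes change from library to library, not a spread between mice. These p-values may therefore be too small. The log2 change of Runx3 was lower by 1.11 in LT-HSC-like than in neutrophil-primed-like cells (edgeR adjusted p = 1.27e-13, 0.786% of 14373 genes called) and lower by 0.86 than in megakaryocyte-erythroid-like cells (adjusted p = 9.46e-07, 0.146% called). Between megakaryocyte-erythroid-like and neutrophil-primed-like cells the difference of -0.25 did not pass (adjusted p = 0.607, 0.369% called). No other member passed in any of the 3 contrasts.

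The decrease was spread over the clusters, named or not. Of 10 clusters with 50 or more cells of each genotype in each library, Runx3 was lower in Sin3B-/- cells in 9 at homeostasis and in 10 after 5-FU. The exception, led by Tcf7, Trbc1 and Bcl11b, had a log2 ratio of 0.15 with an interval of -0.10 to 0.38. The lowest ratio at homeostasis was that of the LT-HSC-like cluster, and after 5-FU that of the Cldn5 cluster, -1.63, from 30.6 CPM in wild type to 9.91 in Sin3B-/- (42 and 51 UMIs). The mean of the within-cluster ratios, weighted by the number of Sin3B-/- cells in each cluster, was -0.68 at homeostasis and -0.94 after 5-FU, beside -0.60 and -0.69 over all cells.

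Some values moved with Runx3. The summed level of the 10 LT-HSC markers, whose cells hold least Runx3, was 1645 CPM in wild type and 2070 in Sin3B-/- over all cells at homeostasis, and in the 5-FU library 895 and 957. Each of these markers was higher in Sin3B-/- cells at homeostasis. In the 5-FU library Hlf went from 488 to 443 and Meg3 from 17.4 to 8.07 CPM, while the other markers of the list were higher. The 6 lymphoid-primed markers summed to 772 and 553 CPM and, in the 5-FU library, to 210 and 111. The summed level of 6 T and NK cell markers was lower in Sin3B-/- cells too, going from 106 to 72.6 CPM at homeostasis and from 180 to 115 after 5-FU, almost all of it from Nkg7 (104 to 68.8 and 172 to 108 CPM). Thy1 went from 1.92 to 2.13 and from 6.44 to 6.53 CPM. The defining marker Cd3e was at 0 in all 4 pools, and Cd3d, Trbc2 and Il2rb each stood below 1 CPM on at most 39 UMIs, all 3 higher in Sin3B-/- cells at homeostasis and lower in the 5-FU library. Cd3e and Cd3d are among the 9 lineage genes by which cells were removed, so their low counts were in part set by that filter. Within LT-HSC-like cells these 6 markers summed to 25.4 and 12.4 CPM at homeostasis and 69.9 and 38.6 after 5-FU. Their part in the Runx3 values was not tested.

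Runx2 was lower in Sin3B-/- cells as well, by less and without passing the test. It stood at 414 CPM in wild type and 389 in Sin3B-/- at homeostasis and at 106 and 77.5 CPM after 5-FU, log2 ratios of -0.09 (-0.12 to -0.06) and -0.46 (-0.52 to -0.40). In LT-HSC-like cells the ratios were -0.12 and -0.39, with an edgeR adjusted p of 0.469. Over clusters it lay lower in 9 of 10 at homeostasis and in 10 of 10 after 5-FU, but the ratio over all cells at homeostasis was 0.013 under the stricter hashtag rule.

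Runx1 and Cbfa2t3 moved in opposite directions in the libraries. Runx1 stood at 788 CPM in wild type and 819 in Sin3B-/- at homeostasis and at 189 and 171 CPM after 5-FU, log2 ratios of 0.06 and -0.15. Cbfa2t3 stood at 245 and 285 CPM at homeostasis and at 325 and 277 after 5-FU, log2 ratios of 0.21 and -0.23. With 1 pool per genotype in a library the change of direction has no replicate check. The 16 mitotic genes did the same in the opposite sense: all 16 were lower in Sin3B-/- cells at homeostasis (median log2 ratio -0.38) and all 16 higher after 5-FU (0.30), where by the interval 23.3% of all genes were lower at homeostasis and 23.5% higher after 5-FU. The fit over both libraries averages such opposite changes, so nothing is read from it for these genes; the part of this in the Runx1 and Cbfa2t3 values was not tested. Cbfb was at 132 and 120 CPM at homeostasis and 59.0 and 55.3 CPM after 5-FU, log2 ratios of -0.13 and -0.09.

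Counted by the interval alone, with 95% intervals that cover counting error only, most members differed between the genotypes within a library, as many genes did. At homeostasis 3 members lay lower in Sin3B-/- cells (Runx2, Runx3 and Cbfb; 23.3% of all genes) and 2 higher (Runx1 and Cbfa2t3; 24.5%). After 5-FU 5 lay lower (27.7% of all genes) and 1, Runx1t1, higher (23.5%). Past a change of 1.5-fold there were fewer: Runx3 in each library (5.08% and 4.83% of genes lower) and Runx1t1 higher after 5-FU (3.66%), with no member higher at homeostasis (5.48%). In LT-HSC-like cells Runx3 and Runx1t1 passed 1.5-fold on the lower side at homeostasis (3.75%) and none on the higher (2.96%), and after 5-FU Runx3 passed it on the lower side (4.97%) and Runx1t1 on the higher (2.54%), the latter on 11 and 13 UMIs with an interval that includes 0. By the interval alone Runx2, Runx3 and Runx1t1 lay lower (12% of genes) and Runx1 higher (12.3%) in LT-HSC-like cells at homeostasis, and Runx1, Runx2, Runx3 and Cbfa2t3 lay lower (16.9%) and none higher (11.7%) after 5-FU.

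Runx1t1 gave different answers over all cells and within the clusters that hold most of its UMIs. Over all cells it stood at 4.78 CPM in wild type and 5.17 in Sin3B-/- at homeostasis, a log2 ratio of 0.12 with an interval of -0.16 to 0.38, and at 1.35 and 2.499 CPM after 5-FU, 0.88 (0.44 to 1.34). In LT-HSC-like cells at homeostasis it was 32.6 CPM in wild type and 17.4 in Sin3B-/- (257 and 124 UMIs), -0.90 (-1.23 to -0.59). In the Cldn5 cluster after 5-FU it was 24.0 and 15.0 CPM (33 and 77 UMIs), -0.70 (-1.29 to -0.05). In LT-HSC-like cells after 5-FU it was instead higher, 1.39 and 2.43 CPM (11 and 13 UMIs), 0.79 with an interval of -0.48 to 2.10. That ratio stayed positive in 13 of 13 alternatives, from 0.40 to 1.42, one of which counts the Cldn5 cluster as LT-HSC-like. Within the LT-HSC-like cluster at homeostasis and the Cldn5 cluster after 5-FU, which hold most of its UMIs, it was thus lower in Sin3B-/- cells. Those clusters made up more of the Sin3B-/- than of the wild-type cells: 1090 of 4108 against 1204 of 10184 at homeostasis, and 658 of 3307 against 207 of 4855 after 5-FU. No test bears on the Cldn5 cluster, which has 1 pool per genotype, and over both libraries the change in LT-HSC-like cells missed the threshold (log2 -0.66, edgeR adjusted p = 0.288). That fit averages a negative ratio at homeostasis and a positive one after 5-FU, so nothing is read from it.

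**Figure D4:**
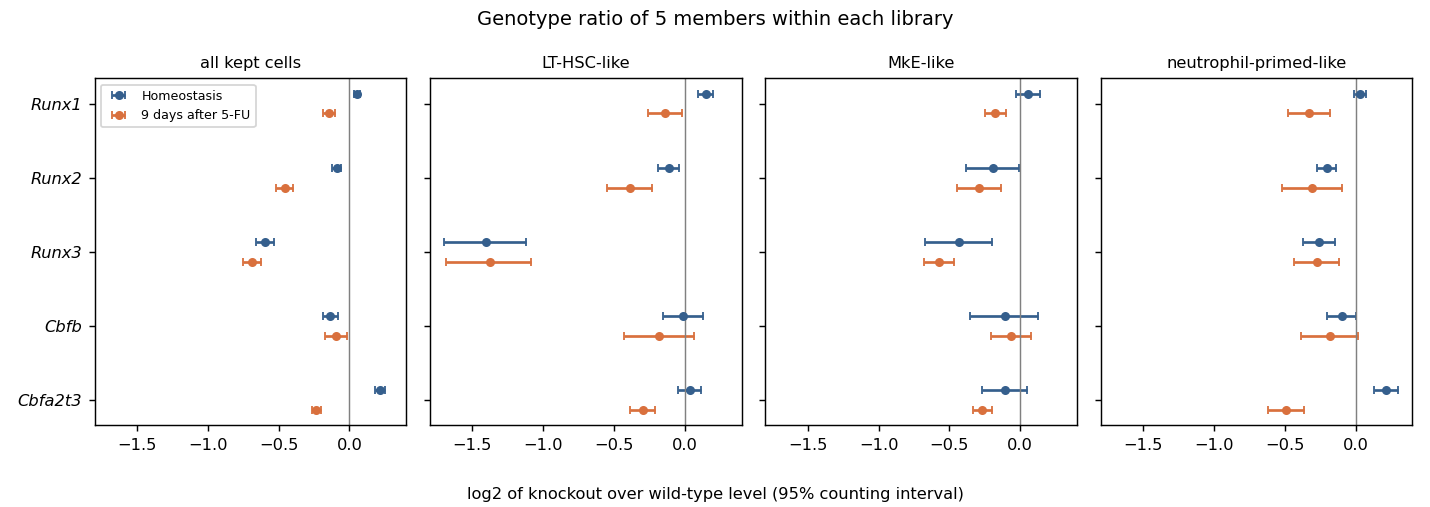
Points give the log2 ratio of Sin3B-/- over wild type for the members other than Runx1t1 in all kept cells and in the 3 cell types with 50 or more cells in each pool, at homeostasis and after 5-FU, with the counting interval (95%) as bars and a line at 0. Runx3 lies left of 0 in each panel, farthest in LT-HSC-like cells (-1.40 and -1.38), while over all kept cells Runx1 and Cbfa2t3 change side between the libraries.

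Division is one of the axes along which LSK cells differ, so the members were also read against it. Cells were thinned to 4000 UMIs each, leaving out 170 to 512 shallower cells per pool, and split by their UMIs from the 16 mitotic genes. Runx3 rose with mitotic counts: in wild-type cells with 0, 1 to 4 and 5 or more mitotic UMIs it stood at 102, 111 and 124 CPM at homeostasis and at 96.4, 109 and 125 after 5-FU. Runx2 fell, from 445 to 345 and from 128 to 85.0 CPM between the first and the last bin. Cbfb went with Runx3, from 119 to 148 and from 53.5 to 79.96 CPM, and Cbfa2t3 with Runx2, from 271 to 198 and from 381 to 248 CPM.

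The lower Runx3 of Sin3B-/- cells was present in each of the 3 bins. In cells with no mitotic UMI it was 57.0 CPM in Sin3B-/- against 102 in wild type at homeostasis, and 47.2 against 96.4 after 5-FU. Over the 3 bins the homeostasis library gave log2 ratios of -0.84, -0.50 and -0.44, and the 5-FU library gave -1.03, -1.10 and -0.52. They were nearest 0 in the bin of 5 or more mitotic UMIs in both libraries, without a test of that order.

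**Figure D5:**
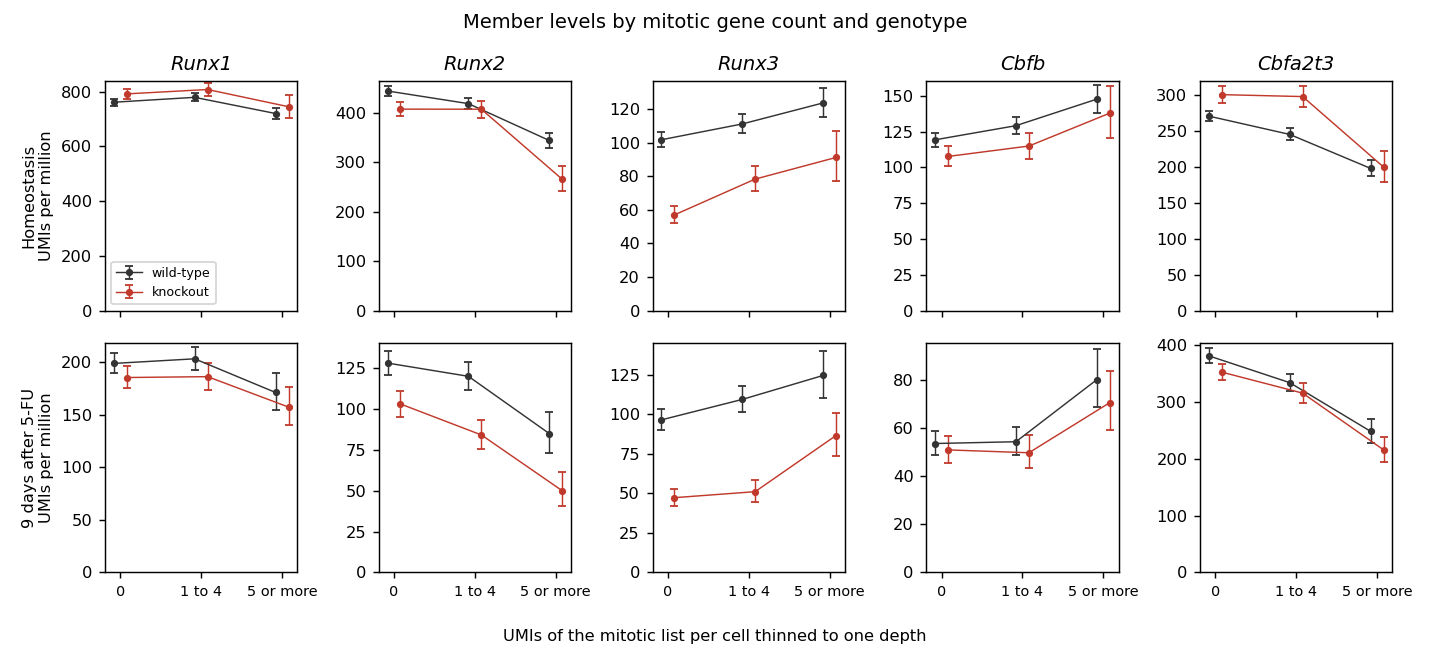
Lines give the level (CPM) of the members other than Runx1t1 in cells thinned to 4000 UMIs with 0, 1 to 4 and 5 or more UMIs of 16 mitotic genes, for wild type and Sin3B-/- in each library, with Poisson intervals (95%). From the first to the last bin Runx3 and Cbfb climb and Runx2 and Cbfa2t3 descend in both genotypes, and the Sin3B-/- line of Runx3 runs below the wild-type line throughout (57.0 against 102 CPM in the first bin at homeostasis).

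Proteins that work with the Runx complex were counted from fixed lists, beside a median log2 ratio over all 11658 genes measured of 0.01 at homeostasis and -0.01 after 5-FU. Of 15 corepressors, such as the NCoR and Sin3 subunits and the Groucho family, 0 were called over all cells by edgeR (0.965% of all genes higher and 0.849% lower) or DESeq2 (1.46%), and 3 had an unadjusted edgeR p under 0.05, against 14.1% of all genes; the list medians were -0.06 and -0.05. The 3 with the largest like-signed ratios were Tle1 (-0.28 and -0.45) and Tle3 (-0.16 and -0.52), both Groucho corepressors, and Gps2 (0.18 and 0.28), an NCoR subunit that edgeR called higher in megakaryocyte-erythroid-like cells only (log2 0.35, adjusted p = 0.0327, 2.7% of all genes called higher) and DESeq2 in none of the 4 fits. Of 13 coactivators and modifiers 1 was called over all cells, where 0.849% of all genes were called lower: Cdk6, a G1 kinase that also binds Runx1.

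Cdk6 stood at 1298 CPM in wild type and 871 in Sin3B-/- at homeostasis, and at 591 and 420 CPM after 5-FU. It was called lower by edgeR over all cells (log2 -0.52, adjusted p = 0.0309), in LT-HSC-like (-0.50, 0.0496), megakaryocyte-erythroid-like (-0.34, 4.34e-05) and neutrophil-primed-like cells (-0.33, 0.00826). Of all genes 0.731%, 2.05% and 1.38% were called lower in these 3 types. DESeq2 called it in these fits except in LT-HSC-like cells, where its unadjusted p was 0.00387. Carm1 (-0.33 and -0.12) and Smurf1 (-0.26 and -0.31) were the others with the largest ratios and did not pass. The list medians were -0.02 and -0.12.

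Of 16 partner transcription factors 0 were called by edgeR or DESeq2 over all cells and 3 had an unadjusted edgeR p under 0.05, again against 14.1% of all genes (medians 0.03 and -0.17). Gata2, a stem cell factor that shares many sites with Runx1, had ratios of 0.71 and 0.07. Gfi1b, a transcriptional repressor that works within the megakaryocyte and erythroid lineages, had 0.60 and 0.31. Ets1, another partner of Runx1 on DNA, had -0.38 and -0.41. In megakaryocyte-erythroid-like cells 3 of 16 were called, Gfi1b higher (log2 0.37, edgeR adjusted p = 0.0222) and Spi1 (-0.34, 0.0397) and Myb (-0.34, 0.00135) lower, where 2.7% of all genes were called higher and 2.05% lower. DESeq2 called 0 of the 16 there, but it gave an adjusted p to only 3148 genes in these cells, against 12854 tested by edgeR. A gene without one could not be called.

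Of 17 genes known as direct targets of the Runx complex, 13 had 50 or more UMIs in each pool (not Myl9, Alox12, Rag1 and Cd4), and their median log2 ratios were 0.16 and 0.04. Over all cells edgeR called 3 of the 15 that it tested, 2 higher and 1 lower, where 0.965% of all genes were called higher and 0.849% lower. Pf4, a platelet chemokine that Runx1 binds with partners, rose by 1.51 (adjusted p = 0.00369), Myh10, a myosin that Runx1 silences as megakaryocytes mature, rose by 1.07 (0.0239), and Mpo, the granule enzyme of neutrophil precursors, fell by 0.92 (0.0158). Over all cells the summed megakaryocyte-erythroid markers went from 752 to 855 CPM at homeostasis and from 1140 to 1446 in the 5-FU library. Pf4, one of these markers, itself went from 35.5 to 119 and from 188 to 453 CPM. Most of the rise of that sum is thus Pf4, and the sum is no separate check of it. The summed neutrophil-primed markers went from 590 to 486 and from 829 to 598 CPM. Among them Mpo went from 120 to 75.5 and from 104 to 45.5 CPM, and Elane from 9.25 to 17.4 and from 10.6 to 7.93. The part of the cell types in these changes was not tested. In LT-HSC-like cells, where Runx3 was lowest among the named types of 50 or more cells, edgeR and DESeq2 called 0 of the 13 tested. Of these 2 had an unadjusted edgeR p under 0.05, against 11.3% of all genes.

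Within the other types the calls included marker genes of those types. In megakaryocyte-erythroid-like cells edgeR called 6 of the 13 tested, where 2.7% of all genes were called higher and 2.05% lower. It called, among others, Pf4 (log2 1.42, adjusted p = 2.19e-82), Myh10 (1.08) and Ccnd3, a G1 cyclin (0.34), higher, and Mpo (-1.21) and Elane, neutrophil elastase (-1.06), lower; Pf4 is one of the markers by which these cells were named, and cluster 7 after 5-FU raised Mpo and Elane. In neutrophil-primed-like cells 5 of 13 were called, where 1.23% of all genes were called higher and 1.38% lower: Pf4 (1.68), Elane (1.59) and Ccnd3 (0.45) were called higher and Hmga2, a chromatin protein of fetal stem cells (-0.79), and Mpo (-0.45) lower, and there Elane and Mpo are naming markers. Elane was thus called in opposite directions in the 2 types. Over all cells it was also higher in Sin3B-/- cells at homeostasis (0.91) and lower after 5-FU (-0.42). The fit averages the libraries, so nothing is read from these calls about a difference between the types. DESeq2 called 3 of the list over all cells (1.46% of all genes), Pf4 and Mpo among them, and it called 0 of the list within each of these types. It gave an adjusted p to only 3148 genes in megakaryocyte-erythroid-like and 10067 in neutrophil-primed-like cells, and a gene without one could not be called.

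The genes whose levels went most like each member were found over 42 pools of cluster and genotype, each library centred on its own mean, among 11227 genes; the pools share libraries and depth, so the correlations are given as a description. Runx3 went with Nkg7 (Pearson's r 0.91), Cdk6 (0.90) and Bin1 (0.83). Runx1 went with Ago2 (0.82), Ripor2 (0.80) and Clint1 (0.79), and Runx2 with Znrf1 (0.94), Gpr171 (0.93) and Gng2 (0.93). Cbfb went with Dgcr8 (0.83) and Topbp1 (0.81), Runx1t1 with Obsl1 (0.89), Cracr2b (0.88) and Clip3 (0.87), and Cbfa2t3 with Txnip (0.85), Cep63 (0.84) and Eya2 (0.84). Among the members themselves Runx3 and Runx1t1 were the most opposed (-0.67), Runx1 and Cbfa2t3 had 0.53, and Runx3 and Cbfb 0.47.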

How the data were processed

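LSK cells of pooled wild-type and Sin3B-/- mice were captured with 3′ droplet chemistry. The deposited matrices hold raw UMI counts, one value for a gene in a barcode, from Cell Ranger (version 4 at homeostasis and 6.0.1 after 5-FU, per the file headers); the authors did not normalize them, and hashtag counts are rows of the same matrices. The submitters' processing notes name mm9, Seurat and DESeq2. At homeostasis 23931 of 6794880 barcodes, those with at least 2921 gene UMIs, were taken as cells; the 5-FU matrix holds 12753. HTODemux (Seurat 5.3.0, quantile 0.99) called 11579 wild-type and 4628 Sin3B-/- singlets at homeostasis and 5302 and 3727 after 5-FU. The lowest and highest 2% of UMIs, genes and mitochondrial share were removed, and so was any cell in which 9 lineage genes summed to at least 2 UMIs. Barcodes with both tags were left out; doublets within a genotype remain. Cells were clustered by Leiden (resolution 1, 2000 variable genes, 30 components, scanpy 1.11.5) without the members, the gene lists, cell cycle and sex-linked genes, and without 807 genes that differed 2-fold between genotypes, a choice made after a first clustering split by genotype. A cluster took the name of the type with the largest share of its markers raised 1.5-fold, if these were 3 or more (globins not counted) and over 50% of the type's markers, with a defining marker for dendritic cells, and if the 10 leading genes held no other type's markers in equal or greater number.

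Counts were summed per genotype, library and type. Ratios add 0.5 to each count. edgeR 4.0.16 (TMM, quasi-likelihood, library as covariate, Benjamini-Hochberg adjusted p of 0.05) tested types with 50 or more cells in each pool; of 100 genes changed 2-fold in simulated pools it recovered 81 over all cells (17202 genes), 85 in LT-HSC-like (13682), 72 in megakaryocyte-erythroid-like (12854) and 76 in neutrophil-primed-like cells (12697), and 65 in the interaction fit (14373). The simulated counts had the same dispersion for all genes, so recovery may be lower for real genes. Among unchanged genes edgeR called 5, 6, 9 and 1 in these fits, in that order, and 5 in the interaction fit. DESeq2 1.42.0 was an alternative. The study compared cells with MAST, which treats cells as replicates and was not used. Named genes were the members, Sin3b, the 3 of each list with the largest mean ratio of 1 sign in both libraries and 50 or more UMIs per pool, those called, and the 3 genes most correlated with each member (log2 of CPM + 10, 200 or more UMIs). Of the genes this rule takes, 2 are not reported here. The members and lists were chosen with earlier results of these data known. Promoter sequences came from RefSeq (GRCm38.p6), where 5 of the 6 members had an entry; for Runx1t1 none was used.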

Additional observations from a re-analysis of the deposited data

Results flagged for a closer look

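Runx1 and Cbfa2t3 had counting intervals on opposite sides of 0 in the libraries, and the difference between the libraries was not tested, since each has 1 pool per genotype. Over all cells the log2 ratio of Sin3B-/- to wild type was 0.056 (homeostasis) and -0.15 (5-FU) for Runx1, and 0.21 and -0.23 for Cbfa2t3. In LT-HSC-like cells Runx1 had 0.15 and -0.14. In neutrophil-primed-like cells Cbfa2t3 had 0.22 and -0.49.

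Barcodes that carried no hashtag above background belong to no genotype and entered no comparison, but they held the members. The 6283 such barcodes at homeostasis had 846 CPM of Runx1, 400.4 of Runx2, 83.3 of Runx3, 119 of Cbfb, 3.41 of Runx1t1, 276 of Cbfa2t3 and 29.0 of Sin3b. The 3290 after 5-FU had 201 CPM of Runx1, 117 of Runx2, 97.2 of Runx3, 62.1 of Cbfb, 1.75 of Runx1t1, 306 of Cbfa2t3 and 21.7 of Sin3b. Their Sin3b levels lay nearer the Sin3B-/- pools than the wild-type pools in both libraries. Their Runx3 level lay nearer the Sin3B-/- pool at homeostasis (83.3 CPM) but nearer the wild-type pool after 5-FU (97.2 CPM). The genotype of these barcodes was not tested.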

How the results depend on the processing

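The library term of the edgeR fit already pairs the genotypes. No paired analysis was possible beyond it, because each genotype has 1 pool in a library and carries no replicate numbers; leaving out 1 of the 4 pools leaves no residual degree of freedom, and so gives no test. The lower Runx3 kept its direction in all alternatives: its log2 ratio ran from -0.70 to -0.50 over all cells at homeostasis, from -0.94 to -0.60 after 5-FU, and in LT-HSC-like cells from -1.53 to -0.69 and from -2.05 to -1.10. Its call held in 5 of 5 alternatives in LT-HSC-like cells (adjusted p 5.03e-20 to 0.0148), in 4 of 5 over all cells (5.19e-06 to 0.0550) and in 3 of 4 in megakaryocyte-erythroid-like cells (the exception is DESeq2). The number of genes called moved more. In LT-HSC-like cells 208 genes became 124 with library size scaling, 467 with no low-count filter, 13 with DESeq2 and 366 without the lineage filter; over all cells 312 became 201 with DESeq2, 186 where 80% of hashtag UMIs must be of 1 tag and 133 without the lineage filter; in megakaryocyte-erythroid-like cells 611 became 239 with library size scaling and 20 with DESeq2; and in neutrophil-primed-like cells 331 became 519, 523 with no low-count filter, 25 and 546 without the lineage filter. The cause was not tested. Of 81 values of the members 12 turned sign under 1 or more alternatives; 8 of these had been within counting error of 0 or not called. The other 4 turned as follows: Runx2 over all cells at homeostasis was 0.013 with the 80% tag rule, Runx1t1 over all cells after 5-FU was -0.28 when ratios were averaged within clusters, Runx2 in LT-HSC-like over other cells after 5-FU was -0.26 with the study's signatures, and Runx1 in wild-type cells of 5 or more over 0 mitotic UMIs at homeostasis was 0.0031 without thinning. The level of Runx1t1 in LT-HSC-like over other cells after 5-FU ran from -0.51 to 4.43 (log2) with the clustering and naming. Counting the Cldn5 cluster as LT-HSC-like and the interaction term were added after the data were seen. Runx1t1 is limited by depth: after 5-FU its 2 pools of LT-HSC-like cells held 11 and 13 UMIs.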
